A study of Homo sapiens with 6 samples.

Results

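IL26 and 9 other cytokine genes of T cells were examined in RNA sequencing of 6 libraries of cells labelled U-937, a human line derived from a histiocytic lymphoma and used as a model of monocytes (the labels call them acute myeloid leukemia cells). The FOXO3 KO group held 3 libraries of cells in which FOXO3 (labelled FOXO3A) had been knocked out with small guide RNAs, and the Control group held 3 libraries labelled WT. All 6 were grown in RPMI1640 with serum, and the labels give no further agent, no number of clones and no guide sequence, nor do they tie the replicates to separate cultures, so the spread between libraries may be technical. The comparison asks how loss of FOXO3, a forkhead transcription factor downstream of PI3K and AKT, alters gene expression in these cells. The genes were taken by name from a list of T cell cytokines (IL26, IFNG, IL22, IL2, IL4, IL10, IL13, IL16, IL21 and TGFB1), out of 47102 gene names, and 9 of the 10 were read. TGFB1 was not analysed here.

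The list was selected on measured values as well as by name: the FPKM (fragments per kilobase of transcript, scaled to the library's total) of these libraries and the difference between the groups were known when it was drawn up. The values of the 10 genes in the 2 groups are therefore a description, and no p-value is given for them.

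Cytokines are secreted proteins by which T cells direct other cells. IL26 and IL22 belong to the IL10 family, whose members are bound by pairs of receptor chains that signal through Janus kinases (JAK) and STAT proteins. IL26 is known as a product of T helper 17 cells and natural killer cells that acts on epithelial cells through IL20RA and IL10RB and also binds DNA and bacteria. IFNG, the macrophage-activating cytokine of T helper 1 and cytotoxic cells, lies beside IL26 and IL22. IL2 drives T cell proliferation, IL4 and IL13 are the T helper 2 cytokines, IL21 supports B cells, IL10 restrains inflammation, IL16 is a ligand of CD4, and TGFB1 is a suppressive cytokine kept latent outside the cell.

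In GENCODE release 29 (GRCh38, the assembly that hg38 names), IL26 lies on chromosome 12 from 68201351 to 68225821 on the minus strand. Its row in the deposited table held 1 transcript of 1075 bases, with 5 exons. IFNG lies 41.6 kb away, from 68154768 to 68159747, and IL22 lies 22.4 kb away on the other side, from 68248242 to 68253604, both on the minus strand too. IFNG-AS1, an antisense RNA gene on the plus strand from 67989445 to 68234686, runs across IL26, but its annotated exons share 0 bases with those of IL26. IFNG-AS1 was listed at the floor of 0.0001 FPKM in all 6 libraries, the value that stands in the table for no signal.

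The sequences upstream of IL26 and of its neighbour IFNG are shown because these genes share a locus and a strand yet differed in level, and that of IL2 because it holds the forkhead core looked for. They are RefSeq's promoter windows (GRCh38.p14), shortened to the bases before the first annotated exon base, 5′ to 3′ on the minus strand, at chr12:68225822-68226060, chr12:68159748-68159990 and chr4:122456726-122456975. Capitals mark the motifs found.
IL26: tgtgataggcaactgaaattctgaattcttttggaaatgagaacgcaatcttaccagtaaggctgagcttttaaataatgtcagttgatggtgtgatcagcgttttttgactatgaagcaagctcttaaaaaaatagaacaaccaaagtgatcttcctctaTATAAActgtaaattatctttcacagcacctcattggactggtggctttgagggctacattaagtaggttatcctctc
IFNG: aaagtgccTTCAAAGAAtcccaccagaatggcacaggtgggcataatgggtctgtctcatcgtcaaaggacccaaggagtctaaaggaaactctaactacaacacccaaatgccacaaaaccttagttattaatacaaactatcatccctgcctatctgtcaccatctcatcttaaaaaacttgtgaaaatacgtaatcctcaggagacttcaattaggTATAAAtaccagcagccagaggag
IL2: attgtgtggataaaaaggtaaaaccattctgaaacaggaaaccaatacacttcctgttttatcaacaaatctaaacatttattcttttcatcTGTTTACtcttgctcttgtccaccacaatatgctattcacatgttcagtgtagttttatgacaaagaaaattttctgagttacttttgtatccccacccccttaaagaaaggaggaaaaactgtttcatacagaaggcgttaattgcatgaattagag

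The motifs searched, on both strands, were GTAAACA (the core bound by FOXO factors), TATAAA (the element bound by the TBP protein of the basal machinery) and TTCNNNGAA (the core bound by STAT dimers). In the IL26 window TATAAA was found and GTAAACA was not, in the IFNG window TATAAA and TTCNNNGAA were found, and in the IL2 window GTAAACA was found. TATAAA began 78 bases before the window end in IL26, against 24 in IFNG, and its use was not tested. Over the full windows of 300 bases, GTAAACA was in 2 of 13 windows of the cytokine genes (IL2 and IL16) and in 3.42% of all 35116 windows. TATAAA was in 4 of the 13 (IFNG, IL10, IL13 and IL26) and in 11.5% of all, and TTCNNNGAA in 1 of the 13 and in 7.66% of all. The windows searched were those of 9 of the 10 genes, without IL22. A match or its absence describes the letters of these windows only.

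FOXO3 itself did not differ measurably between the groups. It was at 3.93, 4.13 and 3.45 FPKM in FOXO3 KO libraries and at 4.22, 3.63 and 4.27 FPKM in Control libraries (log2 fold change −0.06, SE 0.10, limma adjusted p = 0.732). A small insertion or deletion can remove the protein and leave the mRNA in place, so this level does not check the label. All directions below refer to libraries by their label.

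The label U-937 was not borne out by the defining markers. CD3E, a chain of the T cell receptor complex, was at 197, 214 and 224 FPKM in FOXO3 KO libraries and at 182, 214 and 207 FPKM in Control libraries. All 13 monocyte and macrophage markers with a row of their own were below a mean of 1 FPKM, and FCGR1A and S100A8 were at the floor throughout. CD68, the other marker listed, was read only in a row shared with EIF4A1, SENP3 and others, so its own level is not known. That row was at 73.1, 61.7 and 63.8 FPKM in FOXO3 KO libraries and at 60.4, 66.6 and 62.8 FPKM in Control libraries. S100A9, a calcium-binding protein of myeloid cells, was at 0.415, 0.312 and 0.472 FPKM in FOXO3 KO libraries and at 0.0938 FPKM in Control replicate 2, with the other controls at the floor (limma adjusted p = 0.0492 with no filter on low values). Of 11 such markers with a value in at least 1 library, 2 (S100A9 and CD14) were higher in the knockout without overlap. ITGAM alone was lower without overlap, at the floor in FOXO3 KO and at 0.0180, 0.00869 and 0.0227 FPKM in Control libraries. Over all names this low, 7.51% were higher and 5.4% lower without overlap. CD86 had means of 0.372 FPKM in FOXO3 KO and 0.374 FPKM in Control libraries. Summed over the 13 markers with a row of their own, the level was 0.940 to 1.19 FPKM in FOXO3 KO and 0.481 to 0.614 FPKM in Control libraries. The 14 T cell markers summed to 703.0 to 759 FPKM in FOXO3 KO and 623 to 703.2 FPKM in Control libraries. Of 12 tested T cell markers 2 rose past the threshold, as did 1.38% of all tested genes. In direction alone, 9 of the 12 were higher and 3 lower in the knockout. CD2, an adhesion molecule, was at 3.16 ± 0.102 FPKM in FOXO3 KO and 1.39 ± 0.287 FPKM in Control libraries (SD, n = 3 each; limma adjusted p = 0.0214). TRAT1, an adaptor of the T cell receptor, was at 12.6 ± 1.11 FPKM in FOXO3 KO and 5.99 ± 0.708 FPKM in Control libraries (limma adjusted p = 0.0116). CD4, below a mean of 1 FPKM, was lower in the knockout without overlap, at 0.175 ± 0.00739 FPKM against 0.527 ± 0.104 FPKM in Control libraries. The 8 natural killer cell markers summed to 9.66 to 11.5 FPKM in FOXO3 KO and 2.69 to 6.02 FPKM in Control libraries. Most of this was NKG7, a granule protein (9.14, 9.49 and 11.1 FPKM in FOXO3 KO and 2.37, 4.50 and 5.49 FPKM in Control libraries), with KLRF1 and NCR1 at the floor. The 7 B cell markers summed to 26.4 to 33.3 FPKM in FOXO3 KO and 37.0 to 44.6 FPKM in Control libraries. The monocyte and natural killer sums, CD2 and TRAT1 were higher in the libraries where IL26 was high, without overlap. The B cell sums and CD4 were lower in those libraries, also without overlap. The part of any of these in the IL26 difference was not tested. The deposited values do not separate a larger share of expressing cells from more RNA per cell.

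Among the 9 genes read, IL26 had the highest level and the largest difference. It was at 9.13, 10.3 and 9.39 FPKM in FOXO3 KO libraries, against 1.69, 1.34 and 1.99 FPKM in Control libraries. Every knockout library lay above every control library, and the lowest knockout value was 4.59 times the highest control value. The means were 9.59 ± 0.591 FPKM in FOXO3 KO and 1.67 ± 0.325 FPKM in Control libraries (SD, n = 3 each), a ratio of 5.73. On the scale of log2(FPKM + 1), which understates the change of low genes, the fold change was 1.99 (SE 0.11). With a pseudocount of 0.1 FPKM in place of 1 it was 2.46, and with each library left out in turn it was 1.90 to 2.08.

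The depth behind these values was read from the table itself. In rows with 1 transcript, FPKM times transcript length had a most frequent value in each library, with a second peak at 2 times that value, and this value was taken as 1 read pair. On that reading the libraries held about 15100000, 16000000 and 17000000 read pairs in FOXO3 KO and 19000000, 20200000 and 15500000 in Control. The reading is approximate, since 36.3% to 39.3% of low values in such rows lay within 0.05 of a whole multiple. IL26 then rested on about 148, 177 and 172 read pairs in FOXO3 KO libraries and on about 34.6, 29.1 and 33.1 in Control libraries. Every knockout library gave more IL26 read pairs than every control library. By these estimates FOXO3 KO replicate 1 was less deep than each control library. FOXO3 KO replicates 2 and 3 were less deep than Control replicates 1 and 2 and deeper than Control replicate 3.

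Of the 11162 genes averaging 1 FPKM or more, 299 passed the limma test (adjusted p below 0.05), which is 2.68% of them, and 1.38% passed as higher in the knockout. Ranked with sign from the largest rise downward, IL26 had the 8th highest log2 fold change among all tested rows. These ran from −2.38 to 3.04. That rank is a description, since IL26 was chosen with this difference known. The IL26 transcript has 35.7% GC, and the 326 tested genes within 2.5 percentage points of it had a median log2 fold change of 0.39, against 0.02 over all tested genes. The part of GC content in the IL26 difference was not tested. Control replicate 2 stood apart from the other libraries on the first principal component (−31.3, against −3.71 and −13.6 for the other controls), and it also had the lowest IL26 value. Without it the IL26 log2 fold change was 1.90.

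IL16, whose protein is cut by caspase 3 to release the cytokine, was the other of the 9 genes above the floor in every library. It was at 0.797, 0.778 and 0.746 FPKM in FOXO3 KO libraries and at 0.622, 0.575 and 0.540 FPKM in Control libraries. The groups did not overlap, but the difference was small, with means of 0.774 ± 0.0257 FPKM in FOXO3 KO and 0.579 ± 0.0413 FPKM in Control libraries (SD, n = 3 each) and a ratio of 1.34. IL26 was 12.4 times as high as IL16 in the knockout means and 2.89 times as high in the control means, both in FPKM and so per length of transcript.

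IL10 was at 0.0307, 0.0869 and 0.109 FPKM in FOXO3 KO libraries, and in Control libraries at the floor in replicates 1 and 3 and at 0.0191 FPKM in replicate 2. All 3 knockout values were above the controls, at levels where a library holds few reads. IL13 was at 0.0680, 0.0338 and 0.0150 FPKM in FOXO3 KO libraries and at 0.0182 FPKM in Control replicate 1, with the other controls at the floor. Here the groups overlapped.

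IFNG, the neighbour of IL26, was at or near the floor in both groups. It was at 0.0547 and 0.0488 FPKM in FOXO3 KO replicates 1 and 2 and at the floor in replicate 3, and at 0.0518 FPKM in Control replicate 3 and at the floor in the others. Each value above the floor came to about 1 read pair (1.01, 0.952 and 0.977), so that a difference in IFNG was not detectable at this depth. IL22, the other neighbour, was at the floor in all 6 libraries, as was IL21. IL4 had a value in FOXO3 KO replicate 3 alone, at 0.0689 FPKM, and IL2 in Control replicate 2 alone, at 0.0440 FPKM.

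In order of level in the knockout libraries, IL26 came first and IL16 second without overlap between them, which also held in the control libraries. IL10, IL13, IFNG and IL4 followed in the knockout libraries, at levels whose ranges overlapped. Of the 9 genes read, 3 (IL26, IL16 and IL10) had every knockout value above every control value, while 17.7% of tested genes did so, and 7.51% of names below a mean of 1 FPKM with a value in at least 1 library. In these low names, 5.4% had every knockout value below every control value, and in tested genes 14.7%. Since the list was chosen with these groups in view, nothing is read from that share.

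**Figure D1:**
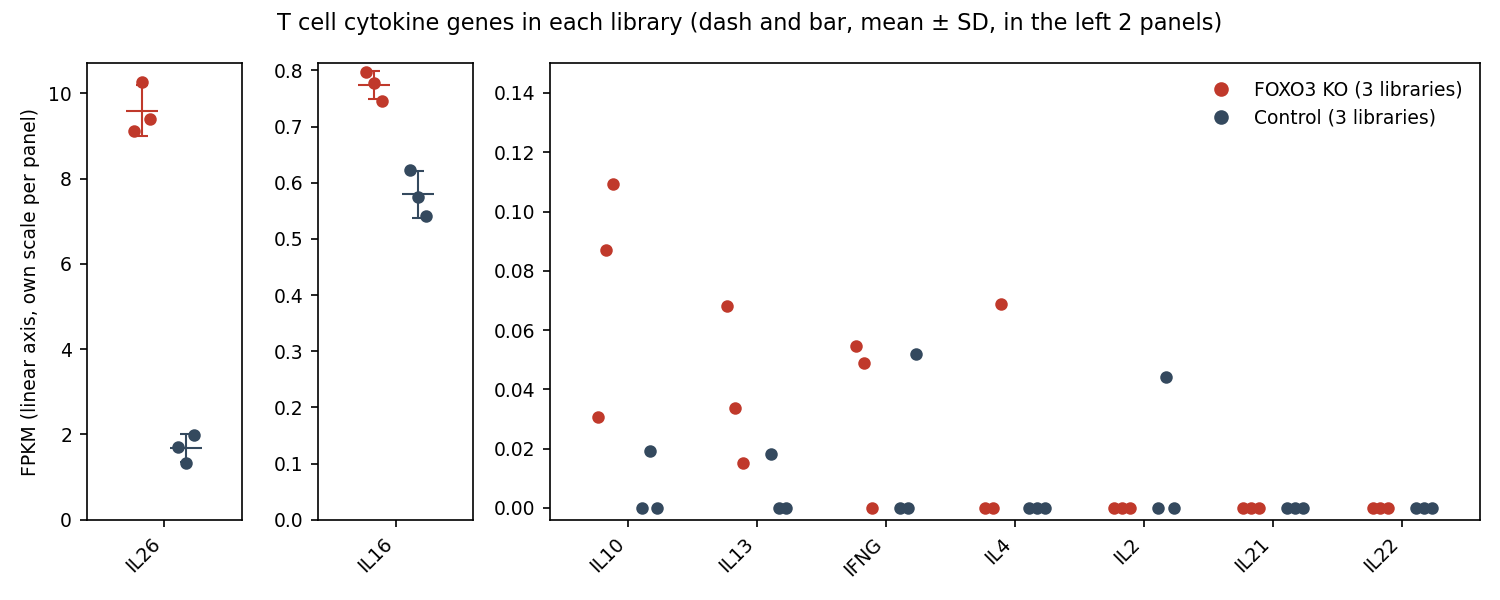
FPKM of the 9 cytokine genes in each library, with FOXO3 KO in red to the left of Control in dark blue, on linear axes of their own in each panel, with dashes and bars for the mean and SD of IL26 and IL16. IL26 sits between 9.13 and 10.3 FPKM in the knockout libraries and between 1.34 and 1.99 FPKM in the controls, IL16 below 0.8 FPKM in both, and the 7 others at or below 0.109 FPKM.

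The tested neighbours of IL26 did not share a difference of its size. IFNG, IL22 and IFNG-AS1, which lie closest, were at or near the floor, so no fold change could be read for them. Of 18 listed neighbours up to 2235 kb away, 14 had a row of their own and 6 were tested, with 0 past the threshold in limma (3 at an unadjusted p below 0.05, which 25.7% of all tested genes reached). Of these 6, 5 were higher and 1 lower in the knockout, with a median log2 fold change of 0.32, against 0.02 over all tested genes. RAP1B, a small GTPase of integrin activation, was at 11.9 ± 0.885 FPKM in FOXO3 KO and 7.42 ± 1.22 FPKM in Control libraries (SD, n = 3 each; log2 fold change 0.63, SE 0.12, limma adjusted p = 0.0521). MDM1, the nearest protein-coding gene beyond IL22 and 46.6 kb from IL26, was at 4.08 ± 0.408 FPKM in FOXO3 KO and 2.66 ± 0.817 FPKM in Control libraries (log2 fold change 0.49, adjusted p = 0.145). CPSF6, of pre-mRNA cleavage, and NUP107, of the nuclear pore, had log2 fold changes of 0.26 and 0.33 (adjusted p = 0.0840 and 0.224). The tested neighbours had 40.3% to 52.0% GC, against a median of 49.3% over all tested genes. Without Control replicate 1, MDM1, RAP1B and NUP107 passed the test as higher in the knockout (limma adjusted p = 0.0484, 0.0264 and 0.0424). RAP1B also passed with a mean of at least 5 FPKM (0.0456) and after quantile normalization (0.0412), so in 3 of 15 alternatives, over which its limma adjusted p was 0.0264 to 0.178.

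**Figure D2:**
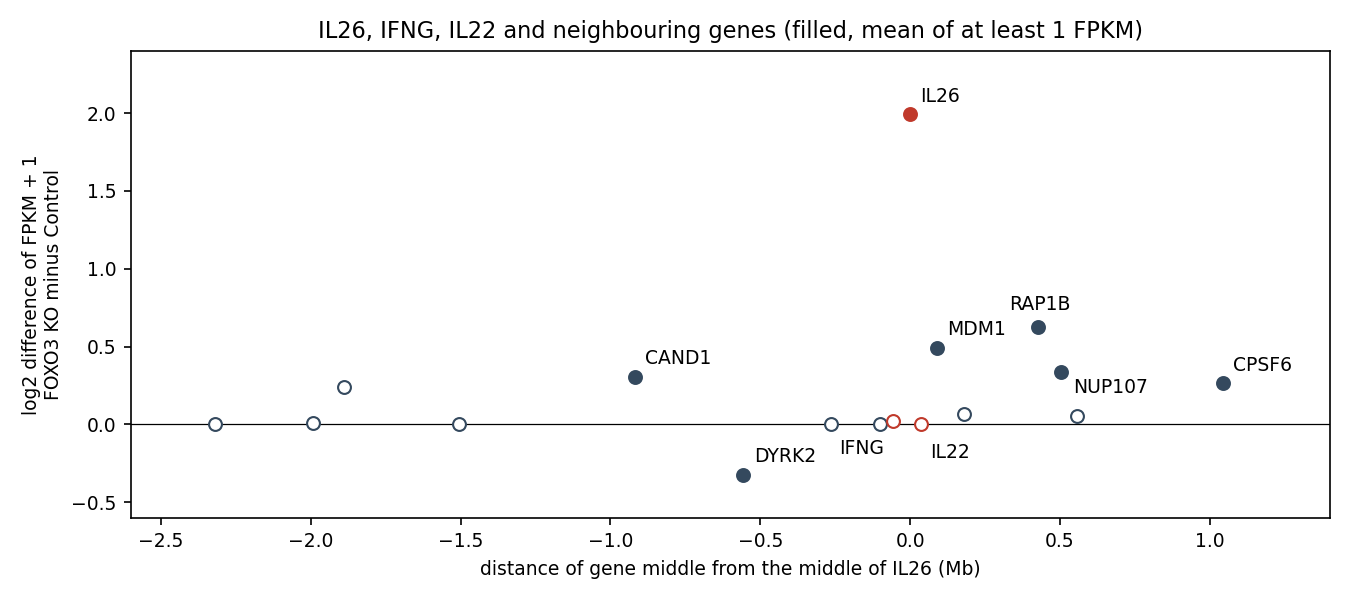
Log2 difference of FPKM + 1 (FOXO3 KO minus Control, vertical axis) for IL26, IFNG, IL22 (red) and listed neighbours (dark blue) by distance from IL26 in Mb, with filled points for genes at a mean of at least 1 FPKM. IL26 lies at 1.99, RAP1B and MDM1 at 0.63 and 0.49, and IFNG and IL22, at or near the floor in both groups, at 0.02 and 0.

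Neighbours of the other clustered genes (IL4 and IL13, IL2 and IL21, IL10) included 11 tested genes. Of these 0 passed in limma (5 at an unadjusted p below 0.05, against 25.7% of all tested genes), with a median log2 fold change of 0.13. KIF3A, a kinesin subunit beside IL4, was at 4.86 ± 0.789 FPKM in FOXO3 KO and 2.95 ± 0.963 FPKM in Control libraries (adjusted p = 0.141). EIF2D, a translation factor near IL10, was at 7.57 ± 0.378 FPKM in FOXO3 KO and 9.50 ± 0.475 FPKM in Control libraries (limma adjusted p = 0.0800).

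The receptors of these cytokines were mostly low, and none passed the test. Of 18 listed, 16 had a row of their own and 5 were tested, with 1 at an unadjusted p below 0.05 (25.7% over all tested genes) and a median log2 fold change of 0.12. IL20RA, the ligand-specific chain of the IL26 receptor, was at the floor in all 6 libraries. IL10RB, its partner chain, was read only in a row shared with IFNAR2, at 10.5 ± 2.12 FPKM in FOXO3 KO and 10.2 ± 2.44 FPKM in Control libraries (SD, n = 3 each). IFNGR1 and IFNGR2, the chains of the interferon gamma receptor, were at 11.4 ± 0.963 and 11.7 ± 0.332 FPKM in FOXO3 KO and at 10.1 ± 1.26 and 12.2 ± 0.533 FPKM in Control libraries (limma adjusted p = 0.379 and 0.695). TGFBR1, the signalling receptor of TGF-beta, was at 4.92 ± 0.196 FPKM in FOXO3 KO and 3.19 ± 0.835 FPKM in Control libraries (log2 fold change 0.52, SE 0.16, adjusted p = 0.111).

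Below the filter, IL2RB, the signalling chain shared by the IL2 and IL15 receptors, was at 0.299 ± 0.0259 FPKM in FOXO3 KO and 0.572 ± 0.0170 FPKM in Control libraries. CD4, the T cell coreceptor that binds IL16, was at 0.177, 0.181 and 0.167 FPKM in FOXO3 KO and 0.577, 0.597 and 0.408 FPKM in Control libraries. With no filter on low values, neither passed the limma test (adjusted p = 0.0758 and 0.0701). Both were named after their values were seen, as were SKIL, MAF, XCL1, XCL2, CCL5, S100A9, CD14, CD86 and ITGAM.

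Transcription factors that act on T cell cytokine genes held the only 2 changes among 58 tested genes of the 9 lists, a share of 3.45% against 2.68% of all tested genes. Both rose, among 12 tested factors (5 at an unadjusted p below 0.05, against 25.7% of all tested genes; median log2 fold change 0.10). EOMES, a T-box factor of cytotoxic and natural killer cells that activates IFNG, was at 3.31, 2.88 and 2.85 FPKM in FOXO3 KO libraries and at 1.01, 1.00 and 1.30 FPKM in Control libraries. Its groups were clear of each other (log2 fold change 0.93, SE 0.10, limma adjusted p = 0.0111). RUNX1, a factor of T cell development, was at 20.4, 21.8 and 21.2 FPKM in FOXO3 KO libraries and at 16.7, 14.9 and 15.4 FPKM in Control libraries (log2 fold change 0.41, SE 0.07, adjusted p = 0.0392). EOMES missed the threshold without FOXO3 KO replicate 2 (adjusted p = 0.0512) and with the replicate number as a block (adjusted p = 0.101). RUNX1 missed it with no filter (adjusted p = 0.0569) and with that block (adjusted p = 0.124). It also missed it with any 1 library other than Control replicate 1 left out (adjusted p = 0.0835 to 0.164).

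GATA3, the factor of T helper 2 cells, was at 20.0 ± 1.43 FPKM in FOXO3 KO and 15.2 ± 0.217 FPKM in Control libraries, with SD over n = 3 each (limma adjusted p = 0.0521). IKZF1 (Ikaros) was at 24.0 ± 0.788 FPKM in FOXO3 KO and 18.8 ± 0.805 FPKM in Control libraries (limma adjusted p = 0.0524). RUNX3, of cytotoxic cells, was at 3.21 ± 0.182 FPKM in FOXO3 KO and 4.45 ± 0.314 FPKM in Control libraries (adjusted p = 0.0637). GATA3 passed in 1 of 15 alternatives and IKZF1 in 3 of 15, among them a mean of at least 5 FPKM (limma adjusted p = 0.0440 for both). RUNX3 passed as a fall in 1 of 14, upper-quartile scaling (limma adjusted p = 0.0495). MAF, a factor that activates IL4 and IL10, was below the filter at 0.308 ± 0.0432 FPKM in FOXO3 KO and 0.109 ± 0.0289 FPKM in Control libraries (limma adjusted p = 0.0712 with no filter).

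JAK, STAT and feedback genes included 11 tested members, of which 0 passed in limma (4 at an unadjusted p below 0.05, against 25.7%; median log2 fold change 0.04). STAT5B, which carries the IL2 signal, was at 13.0 ± 0.721 FPKM in FOXO3 KO and 16.6 ± 1.12 FPKM in Control libraries (adjusted p = 0.0726). PTPN6, the phosphatase SHP-1, was at 16.5 ± 1.00 FPKM in FOXO3 KO and 12.4 ± 0.829 FPKM in Control libraries (adjusted p = 0.0567). It passed in 1 of 15 alternatives, a mean of at least 5 FPKM (limma adjusted p = 0.0480). Interferon gamma targets had 6 tested members and 0 passed (1 at an unadjusted p below 0.05, against 25.7%; median log2 fold change 0.12), with IRF1 at 8.71 ± 0.830 FPKM in FOXO3 KO and 7.31 ± 0.411 FPKM in Control libraries (limma adjusted p = 0.184). CXCL10, CXCL11 and IDO1 were at the floor in all 6 libraries.

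TGF-beta activation and SMAD genes had 7 tested members and 0 passed in limma (3 at an unadjusted p below 0.05, against 25.7%; median log2 fold change 0.11). ITGAV, an integrin chain that helps release TGF-beta from its latent form, was at 1.95 ± 0.279 FPKM in FOXO3 KO and 1.06 ± 0.281 FPKM in Control libraries (adjusted p = 0.0795). It passed in 1 of 14 alternatives, without Control replicate 1 (limma adjusted p = 0.0491). SMAD3 was at 2.75 ± 0.0470 FPKM in FOXO3 KO and 2.07 ± 0.235 FPKM in Control libraries (adjusted p = 0.110). SKIL, a repressor of SMAD proteins, was below the filter at 0.438 ± 0.0509 FPKM in FOXO3 KO and 0.108 ± 0.0106 FPKM in Control libraries. Of the 9 lists, it was the 1 gene below the filter to pass limma with no filter (adjusted p = 0.0303), where 0.763% of 25285 names passed.

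Other T cell cytokines with a row of their own were mostly low or not detected at this depth. Of 21 listed, 20 had a row of their own, 7 were at the floor in all 6 libraries (among them IL17A, IL17F, IL3, IL9 and CSF2) and 2 were tested, with 0 past the threshold in limma (1 at an unadjusted p below 0.05, against 25.7%). The remaining gene, IL32, was read only in a row shared with a small nuclear RNA pseudogene, at 50.1, 62.2 and 70.1 FPKM in FOXO3 KO libraries and at 60.9, 75.1 and 61.5 FPKM in Control libraries (limma adjusted p = 0.632), well above IL26 in level. LTA, lymphotoxin alpha, was at 2.17 ± 0.178 FPKM in FOXO3 KO and 1.56 ± 0.215 FPKM in Control libraries (log2 fold change 0.31, limma adjusted p = 0.12). CSF1, the macrophage growth factor, was at 2.74 ± 0.0458 FPKM in FOXO3 KO and 2.69 ± 0.343 FPKM in Control libraries (adjusted p = 0.889). XCL2, a chemokine of cytotoxic cells, was at 0.177, 0.322 and 0.399 FPKM in FOXO3 KO libraries and at the floor in all Control libraries. Its close copy XCL1 was at 0.108, 0.149 and 0.190 FPKM in FOXO3 KO and at 0.0560 FPKM in Control replicate 3, with the other controls at the floor. How reads shared by these copies were counted is not stated, so each value is uncertain, and neither passed with no filter (limma adjusted p = 0.0794 and 0.109). The chemokine CCL5 went the other way, at the floor in all FOXO3 KO libraries and in Control replicate 2. It was at 0.206 and 0.163 FPKM in Control replicates 1 and 3 (limma adjusted p = 0.332 with no filter). Of the 6 other IL10 family genes listed, IL19, IL20 and IFNL2 were at the floor throughout and none was above a mean of 1 FPKM.

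**Figure D3:**
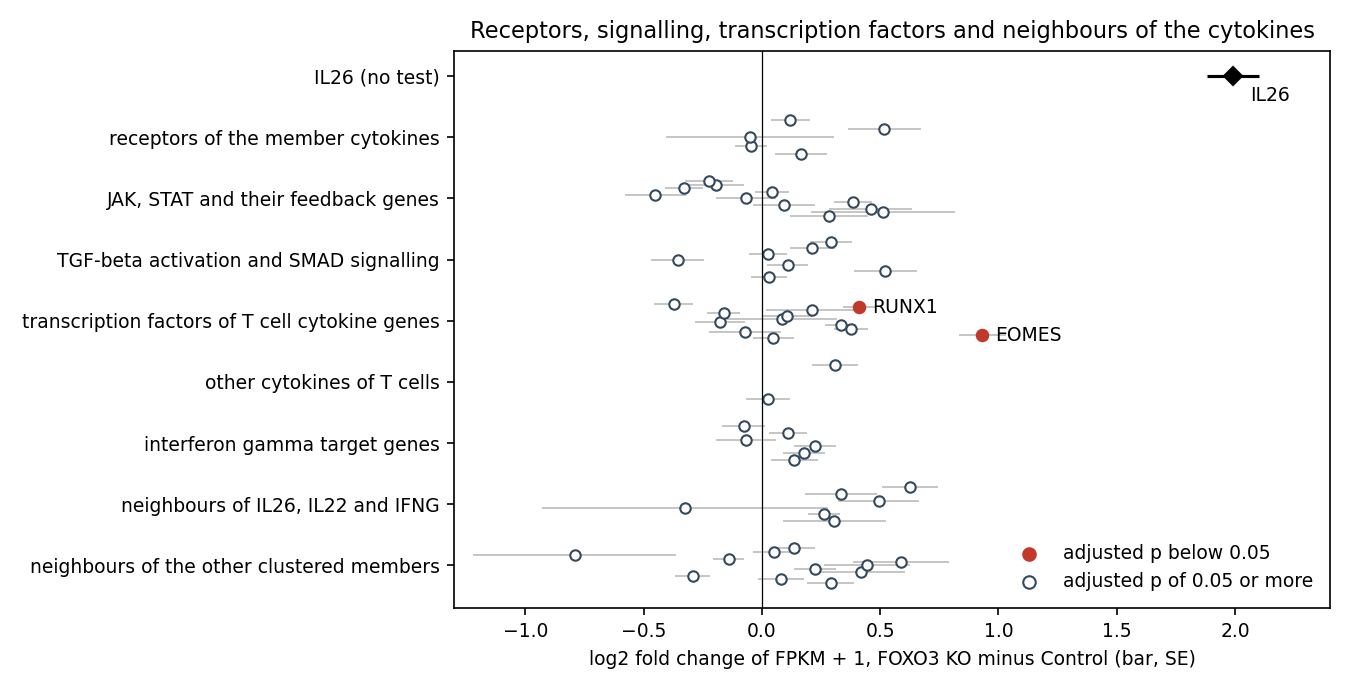
Log2 fold change of FPKM + 1 (FOXO3 KO minus Control, horizontal axis, bars for SE) of each tested gene of the lists with a tested member, with IL26 on top as a diamond and no test. EOMES at 0.93 and RUNX1 at 0.41 are the filled points, and no listed gene reaches the 1.99 of IL26.

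In the pathway annotation of the deposited table, all 9 genes stood under cytokine-cytokine receptor interaction, and 7 of them, not IL26, under JAK-STAT signalling. The first pathway had 48 tested genes of 290 names. It was looked up after the data were seen, and IL26 was chosen on these values, so no share of changed genes is given. Apart from IL26, the genes of this pathway that rose past the threshold were CD40LG, CX3CR1, CCR4 and TNFSF10, where 1.38% of all tested genes rose. CCR4 and TNFSF10 were close to the threshold (limma adjusted p = 0.0489 for both). With no filter on low values, CX3CR1, CCR4 and TNFSF10 missed it (limma adjusted p = 0.0602, 0.0952 and 0.0954). CD40LG, the T cell ligand of CD40, had a larger difference than IL26, at 15.2 ± 1.60 FPKM in FOXO3 KO and 1.52 ± 0.178 FPKM in Control libraries (log2 fold change 2.68, SE 0.10, limma adjusted p = 0.000227). TSLP, an epithelial cytokine that signals through a receptor that shares a chain with that of IL7, fell to 1.90 ± 0.0679 FPKM in FOXO3 KO, against 3.19 ± 0.0236 FPKM in Control libraries (SD, n = 3 each; limma adjusted p = 0.0223). It was also the 1 change among 59 tested genes of the JAK-STAT pathway.

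The genes whose level followed IL26 most closely were ranked over the 6 libraries. By Pearson correlation of log2(FPKM + 1), given as a description over 6 libraries that fall into 2 groups, they were LCP2 (the adaptor SLP-76 of T cell receptor signalling, r = 0.999), CNOT8 (a deadenylase, r = 0.998), CX3CR1 (the fractalkine receptor, r = 0.996), PCMTD1 (r = 0.996), H2AFV (a histone variant, r = 0.995) and HPGD (15-hydroxyprostaglandin dehydrogenase, r = 0.995). LCP2 was at 16.5 ± 0.278 FPKM in FOXO3 KO and 11.5 ± 0.244 FPKM in Control libraries, with SD over n = 3 each. HPGD was at 4.52 ± 0.385 FPKM in FOXO3 KO and 0.914 ± 0.00463 FPKM in Control libraries. In all 6 of these genes every knockout value was above every control value, which their likeness to IL26 brings with it.

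**Figure D4:**
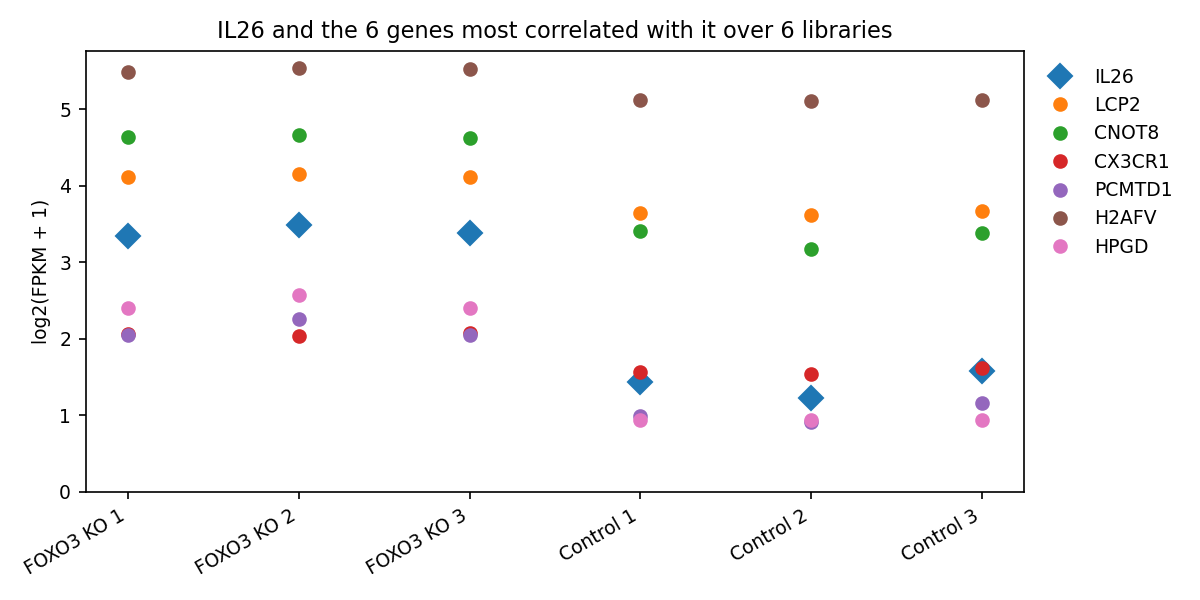
Level as log2(FPKM + 1) of IL26 (diamonds) and of the 6 genes most correlated with it, in each FOXO3 KO library on the left and each Control library on the right. All 7 are higher in the knockout libraries, with IL26 showing the widest gap of the 7 between the groups.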

How the data were processed

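RNA of 6 libraries was sequenced from a kit for mRNA, per the labels. The deposited values are FPKM, 1 column per library, per the file headers. The submitters' processing notes name hg38, Bowtie 0.12.9, Cufflinks 2.1.1 and HTSeq without saying what each was used for. Row identifiers mix Ensembl genes with 20432 merged loci, so a value can include transcripts outside the annotation. Strand and the counting of shared reads are not stated.

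Of 56418 rows, 4865 with a repeated name and identical values were dropped and the rest summed per name. A value of 0.0001 was taken as the floor. Rows naming several genes were tested as such. FPKM are not counts, so limma 3.58.1 (R 4.3.3) was fitted to log2(FPKM + 1) by group alone, with trend = TRUE and Benjamini-Hochberg adjustment at 0.05, over names with a mean of at least 1 FPKM, after a test on simulated data. Per-library depth was estimated from the value of 1 read pair in 34331 rows with 1 transcript. Python 3.11.15 was used for tables and plots.

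The cytokines and lists were chosen with earlier results of these data known. Named were all cytokines, FOXO3, each listed gene past the threshold and up to 4 more per list by smallest p (of which the text gives some), and the 6 genes most like IL26 with a plain gene name. Alternatives covered the pseudocount, filter, scaling, trend, a replicate block, the rows per gene and each library left out.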

Additional observations from a re-analysis of the deposited data

How the results depend on the processing

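The IL26 log2 fold change was between 1.90 and 2.08 under every alternative but a pseudocount of 0.1 FPKM, which gave 2.46. Its lowest and highest values with a library left out were 1.90 and 2.08. The number of genes changed was 299, and it was 193 with no filter on low values, 542 after quantile normalization and 68 to 926 with a library left out (926 without Control replicate 1, 128 without Control replicate 2, 95 without Control replicate 3, 79 without FOXO3 KO replicate 1 and 68 without FOXO3 KO replicate 2 or 3). Upper-quartile scaling gave 170 rises and 259 falls, against 154 and 145. The count over the 9 lists was 2. It was 5 with a mean of at least 5 FPKM, 4 after quantile normalization and 3 with upper-quartile scaling, where RUNX3 fell. With a library left out it was 0 to 8 (0 without FOXO3 KO replicate 2, 8 without Control replicate 1, and 1 without any of the other 4). With the replicate number as a block, 27 genes passed, all among the 299, and 0 listed genes. Shared replicate numbers were not taken to mark pairs, since the deviations of such libraries from the group means correlated at 0.0984, −0.0392 and 0.0162, and not every library correlated best with its own number. CSF1, near no change at 0.03, turned to −0.012 with upper-quartile scaling, −0.018 after quantile normalization and −0.045 without Control replicate 1, and with a library left out ranged between −0.045 and 0.0899. The causes were not tested. With a pseudocount of 0.1 FPKM the log2 differences of IL16 and IL10 were 0.36 and 0.70, against 0.17 and 0.10. Depth limits IFNG, whose values above the floor came to about 1 read pair each. It also limits IL2 and IL4, each above the floor in 1 library alone, for which read pairs were not estimated.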
